A study of Mus musculus with 6 samples.

Results

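The genes described here are 51 that carry pyruvate and fatty acids into mitochondria and oxidise them there, with the tricarboxylic acid (TCA) cycle at the centre. They were taken by gene symbol from the count files, and all 51 were found among the 54525 gene rows listed. The files come from C2C12, an established mouse myoblast line whose cells withdraw from the cell cycle and fuse into multinucleated myotubes. The cells were wild type and untreated, with 3 samples sequenced as myoblasts in growth medium with fetal bovine serum (D0) and 3 as myotubes after 5 days (D5) in medium with horse serum. Each library is bulk RNA of a single cell line grown without motor nerve or blood supply, so D5 differs from D0 in medium and time as well as in cell state. Reads counted on genes numbered 36555048 to 40895840 per D0 library and 25449759 to 25811300 per D5 library, and ERCC spike-ins, synthetic RNAs added to the samples, took from 0.720% to 2.09% of all counts.

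Pyruvate from glycolysis enters the mitochondrion and is converted to acetyl-CoA by the pyruvate dehydrogenase complex, which kinases (PDK) switch off and phosphatases (PDP) switch on. Fatty acids are taken up, bound in the cytosol, activated to acyl-CoA, passed across the inner membrane by the carnitine shuttle and shortened by the enzymes of beta-oxidation, which also yield acetyl-CoA. The TCA cycle oxidises acetyl-CoA and hands electrons to the respiratory chain, and mature skeletal muscle is known for its high capacity for these reactions.

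The labelled cell types were checked against marker genes. Levels in CPM are counts per 1000000 after TMM, edgeR's scaling on the bulk of genes. The summed level of 8 skeletal muscle markers lay between 2013 and 2122 CPM at D0 and between 18406 and 19644 at D5. Nearly all of the D0 sum was *Des*, with a mean of 2012 CPM, which was 1.65-fold higher at D5. The sum of 4 myoblast markers lay between 1046 and 1059 CPM at D0 and between 173.5 and 179.6 at D5. Most of it was *Mki67* at D0 (mean 703 CPM) and *Myod1* at D5 (mean 126 CPM, 1.64-fold lower than at D0). Of 8 adipocyte markers, 3 had more than 3 counts in any library, and *Adipoq* and *Plin1*, which define the cell type, had at most 1 count. Of 6 endothelial and 6 macrophage markers, 3 and 4 passed 3 counts, with sums from 1.00 to 3.28 CPM and from 2.57 to 3.57 CPM. *Tie1*, *Emcn* and *Adgre1* were at 0 throughout. The endothelial *Kdr* had 90, 118 and 92 counts at D0 and 5, 6 and 5 at D5, and *Vwf* had 4, 13 and 5 and then 22, 18 and 15. The macrophage marker *Cd68* had 124, 130 and 123 counts and then 57, 63 and 46, and *Csf1r* had at most 5. Others of that list went the other way. *Itgam* had 0, 0 and 0 counts and then 10, 13 and 5, and *Lyz2* had 1, 1 and 0 and then 4, 10 and 13. Of 5 cardiomyocyte markers 4 passed 3 counts, with sums from 27.0 to 27.6 CPM at D0 and from 2008 to 2254 CPM at D5. Nearly all of it was *Tnnt2*, which immature skeletal muscle also expresses. *Myh6* had 0, 1 and 0 counts at D0 and 584, 719 and 690 at D5. *Tnni3* was 3.02-fold higher at D5 and *Nppb* 8.62-fold lower, and *Nppa* had at most 2 counts. In bulk RNA, fewer cells of a type and less RNA per cell cannot be told apart.

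In myotubes, most of these genes were higher than in myoblasts, by modest amounts. Of the 50 members that passed the filter on low counts, 42 (84%) were higher at D5 and 5 (10%) were lower, by edgeR's quasi-likelihood test with Benjamini-Hochberg adjustment over 16290 genes and a threshold of 0.05. Most of the transcriptome differed between the groups, and by the same test 42.2% of all genes tested were higher and 40.8% lower, 82.9% in either direction. The median log2 fold change of the members was 0.77 against 0.0022 for all genes tested, and their values ran from -1.58 (*Lpl*) to 9.98 for *Cd36*, a fitted value that rests on at most 3 counts in each D0 library. A rise of at least 1 on the log2 scale was called for 18 members (36%), compared with 19.3% of all genes. *Fabp4* was the member that did not pass the filter. With scaling to the ERCC spike-ins, which moved the median of all genes to -0.58, 7 members (14%) passed as higher and 3 (6%) as lower, beside 11.1% and 23.0% of all genes tested, and 14 changed sign.

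Replicates lay close together. The median coefficient of variation of the members' CPM was 3.04% at D0 and 3.74% at D5 (n = 3 each). Every D5 library lay above every D0 library for 42 of the 50 tested members (84%) and below for 4 of the 50. Among all genes tested, 42.2% and 41.1% did so. The other 4 members, *Suclg2*, *Mdh2*, *Pdk3* and *Oxct1*, overlapped between the groups. Some counts are uncertain because members share sequence with pseudogenes or other genes, among them *Got2* (25.6% of its 50-base stretches), *Hadhb* (19.7%), *Suclg2* (16.0%) and *Pdhb* (11.4%), or overlap genes on the opposite strand, among them *Pdha1* (16.1% of its exonic length), *Bcat2* (15.9%) and *Oxct1* (12.6%).

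**Figure D1:**
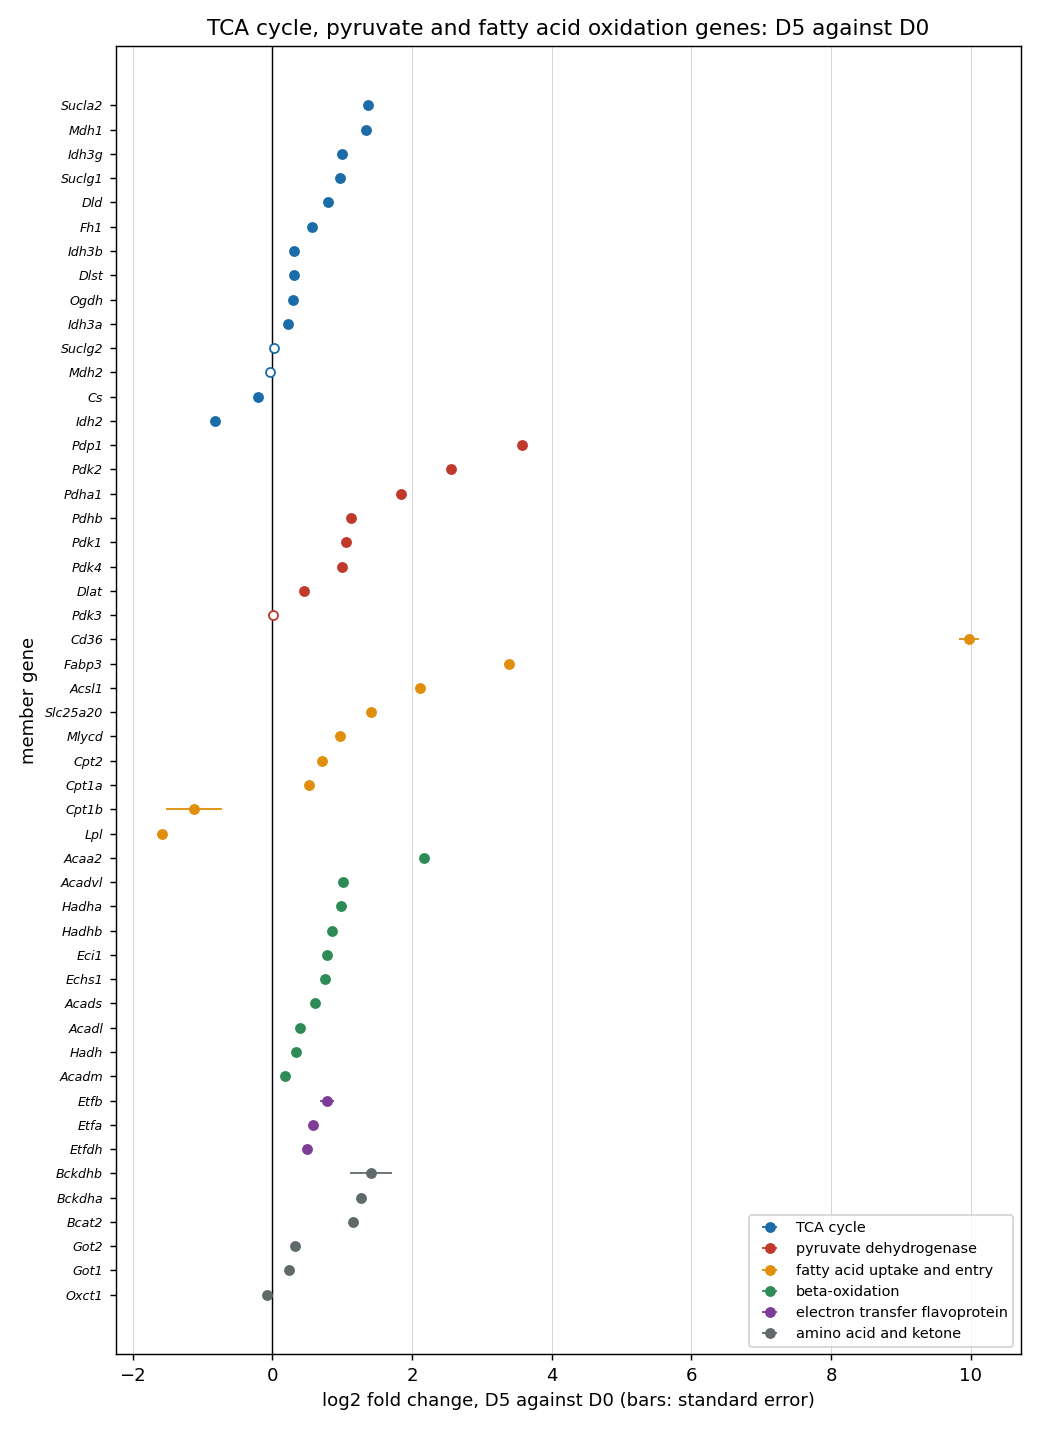
Log2 fold change of each tested member at D5 against D0 (x axis, bars show the standard error of edgeR's fit), ordered within its role and coloured by role; open points did not pass the threshold. With TMM the points of 42 members (84%) lie right of 0 past the threshold, beside 42.2% of all genes tested. With ERCC scaling 7 members (14%) do, beside 11.1%. *Cd36* stands alone at a fitted 9.98 with at most 3 counts in each D0 library, and all 10 beta-oxidation genes lie between 0.18 and 2.17.

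Of the 14 members listed for the TCA cycle, which include the cytosolic *Mdh1*, 10 rose, 2 fell and 2 did not pass the test. Among all genes tested, 42.2% rose and 40.8% fell. The median log2 fold change of the 14 was 0.30. With ERCC scaling *Idh3a*, *Idh3b*, *Ogdh* and *Dlst* turned negative and none of the 14 passed as higher, where 11.1% of all genes did. The rises were uneven. Along the cycle itself the largest belonged to *Sucla2* and *Idh3g*, while the gene of the entry enzyme, *Cs*, fell slightly. The cytosolic *Mdh1* lay between *Sucla2* and *Idh3g*. *Cs* encodes citrate synthase, which joins acetyl-CoA to oxaloacetate, and had 411, 417 and 401 CPM in the D0 libraries and 352, 363 and 347 in the D5 libraries. All 3 myotube values lay below all 3 myoblast values, and the log2 fold change was -0.21 (standard error 0.032, edgeR adjusted p = 6.0e-07). With ERCC scaling the log2 fold change was -0.76 and the call was lost (edgeR adjusted p = 0.248).

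With TMM the isocitrate dehydrogenases moved in opposite directions. *Idh2* encodes the NADP-dependent mitochondrial enzyme, which makes NADPH, and fell from 119, 121 and 118 CPM at D0 to 66.0, 69.8 and 68.1 CPM at D5. No library of one group reached the other, with a log2 fold change of -0.82 (standard error 0.036, edgeR adjusted p = 5.5e-19). *Idh3a*, *Idh3b* and *Idh3g* encode the subunits of the NAD-dependent enzyme of the cycle itself. *Idh3g*, a regulatory subunit, had 69.4, 70.5 and 66.8 CPM at D0 and 140.6, 140.1 and 133 CPM at D5, a log2 fold change of 1.00 (standard error 0.036). *Idh3a*, the catalytic subunit, and *Idh3b* rose less, by 0.23 and 0.31 on the log2 scale. With ERCC scaling *Idh2* was at -1.37, *Idh3a* at -0.34 and *Idh3b* at -0.25, while *Idh3g* was at 0.45 (edgeR adjusted p = 0.522).

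Succinyl-CoA synthetase pairs a common alpha subunit, *Suclg1*, with a beta subunit that sets whether ATP (*Sucla2*) or GTP (*Suclg2*) is made. *Sucla2* had 73.5, 76.3 and 75.0 CPM in myoblasts and 202, 197 and 183 CPM in myotubes, the largest rise in the cycle at 1.37 (log2, standard error 0.037, edgeR adjusted p = 1.4e-24). *Suclg2* had 24.1, 23.1 and 23.3 CPM at D0 and 24.7, 23.4 and 23.8 CPM at D5. Its groups overlapped, and the log2 fold change of 0.029 (standard error 0.052) had an edgeR adjusted p of 0.614. *Suclg1* rose by 0.97 on the log2 scale, between means of 58.2 ± 1.75 and 114 ± 4.82 CPM (SD, n = 3 each).

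The malate dehydrogenases differed in the same manner. *Mdh1*, the cytosolic enzyme of the malate-aspartate shuttle, had 99.9, 103 and 91.5 CPM at D0 and 246, 262 and 237 CPM at D5. Each myotube library was far above each myoblast library, and the log2 fold change was 1.34 (standard error 0.041, edgeR adjusted p = 2.4e-23). *Mdh2*, the mitochondrial enzyme of the cycle, had 233, 240.1 and 226 CPM at D0 and 222, 237 and 226 CPM at D5. These groups overlapped, with a log2 fold change of -0.030 (standard error 0.034, edgeR adjusted p = 0.410). With total counts as the scaling the value was -0.12 and past the threshold, so its call depends on the scaling.

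The remaining enzymes of the cycle rose under TMM. *Ogdh* and *Dlst*, which encode components of the 2-oxoglutarate dehydrogenase complex, rose by 0.30 each on the log2 scale, and *Fh1*, fumarase, rose by 0.57. *Dld*, the dihydrolipoamide dehydrogenase that this complex shares with pyruvate dehydrogenase and the branched-chain enzyme, rose further, by 0.80, between means of 112 ± 3.17 and 194 ± 4.86 CPM (SD, n = 3 each).

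**Figure D2:**
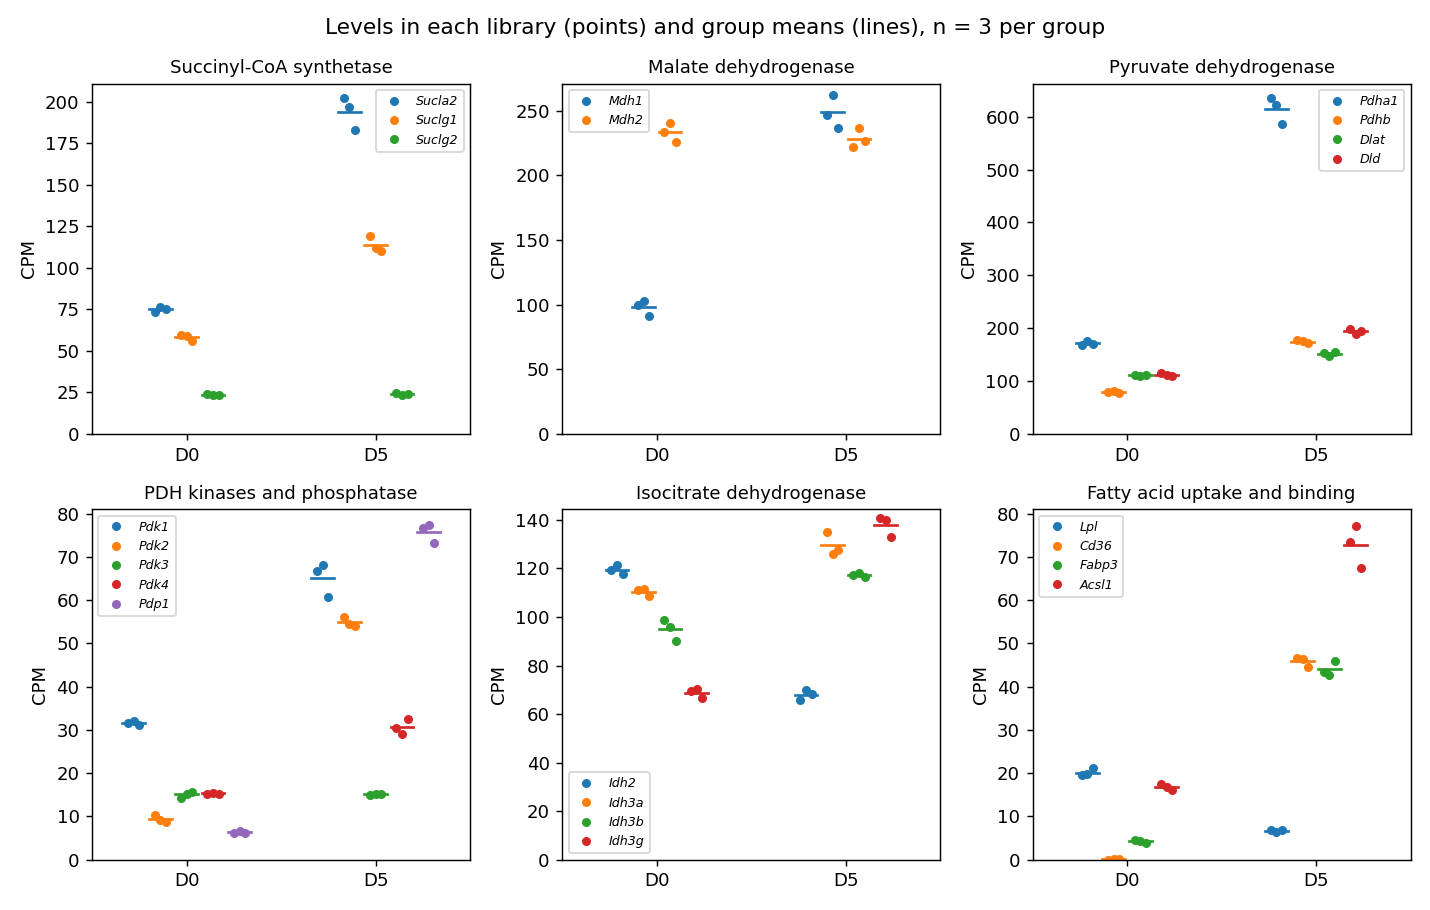
CPM in each library (points) with group means (lines) for 6 sets of related members at D0 and D5, n = 3 per group, each panel on its own linear axis from 0. In each of 5 panels some genes rose while another stayed level or fell, as with *Sucla2* above a flat *Suclg2*; the 4 genes of the pyruvate dehydrogenase panel all rose, of which *Dlat* turned negative with ERCC scaling.

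Of the 8 genes of pyruvate dehydrogenase and its control, 7 rose and none fell, beside 42.2% and 40.8% of all genes tested. Their median log2 fold change was 1.09. With ERCC scaling *Pdha1*, *Pdk2* and *Pdp1* passed as higher, where 11.1% of all genes did, and *Dlat* turned negative. *Pdha1*, the X-linked gene of the catalytic E1 alpha subunit (ENSMUSG00000031299.10, chromosome X of GRCm38 from 160122209 to 160138413), had 168, 176 and 169.9 CPM in myoblasts and 635, 622 and 587 CPM in myotubes. That was 3.59-fold higher with no overlap (log2 fold change 1.84, standard error 0.035, edgeR adjusted p = 1.3e-28). The other subunits rose less. *Pdhb*, the E1 beta subunit, rose from 79.6 ± 2.50 CPM to 175 ± 2.88 CPM (log2 fold change 1.13), and *Dlat*, the E2 acetyltransferase, from 111 ± 1.12 CPM to 152 ± 3.74 CPM (log2 fold change 0.46, SD, n = 3 each).

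The phosphatase gene among the members and 3 of the 4 kinase genes rose, to different degrees. *Pdp1*, a catalytic subunit of the activating phosphatase (ENSMUSG00000049225.14, chromosome 4 from 11958184 to 11966452), had 6.24, 6.58 and 6.18 CPM at D0 and 76.7, 77.4 and 73.3 CPM at D5. It was 11.96-fold higher, the largest change in this group (log2 fold change 3.58, standard error 0.054, edgeR adjusted p = 2.7e-31). *Pdp2*, a further phosphatase gene that is no member, had a mean of 12.6 CPM at D0 and 17.0 CPM at D5, 1.35-fold higher. *Pdk2*, a kinase that inhibits the complex, had 10.3, 9.17 and 8.64 CPM at D0 and 56.1, 54.5 and 54.0 CPM at D5, a 5.87-fold rise (log2 fold change 2.55, standard error 0.056, edgeR adjusted p = 5.5e-27). *Pdk1* and *Pdk4*, the latter known for its induction by fasting, rose by 1.05 and 1.00 on the log2 scale.

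*Pdk3* did not move with the other kinases. It had 14.4, 15.2 and 15.7 CPM at D0 and 15.0, 15.3 and 15.2 CPM at D5. Its log2 fold change of 0.0039 (standard error 0.063) had an edgeR adjusted p of 0.956. Per exonic length, the summed level of the 4 kinase genes was 59.7 ± 0.944 TPM (counts scaled to exonic length and library size) at D0 and 125 ± 3.71 TPM at D5 (SD, n = 3 each). *Pdk3* held the largest share of that sum in myoblasts, 34.1% ± 1.57, and 14.6% ± 0.297 in myotubes, where *Pdk2* held 43.0% ± 0.422 after 17.1% ± 1.52 at D0. Among these genes the order of levels per length at D0 was *Pdk3*, *Pdk4*, *Pdk1* and *Pdk2*, and at D5 *Pdk2* led. *Pdk4* and *Pdk1* followed it at 27.1 ± 1.65 and 26.0 ± 1.73 TPM, which differed by less than 1 SD. This order depends on the division by merged exonic length. By CPM *Pdk1* was the highest of the 4 in both groups, at 31.5 at D0 and 65.2 at D5, with *Pdk2* at 9.36 and 54.9.

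**Figure D3:**
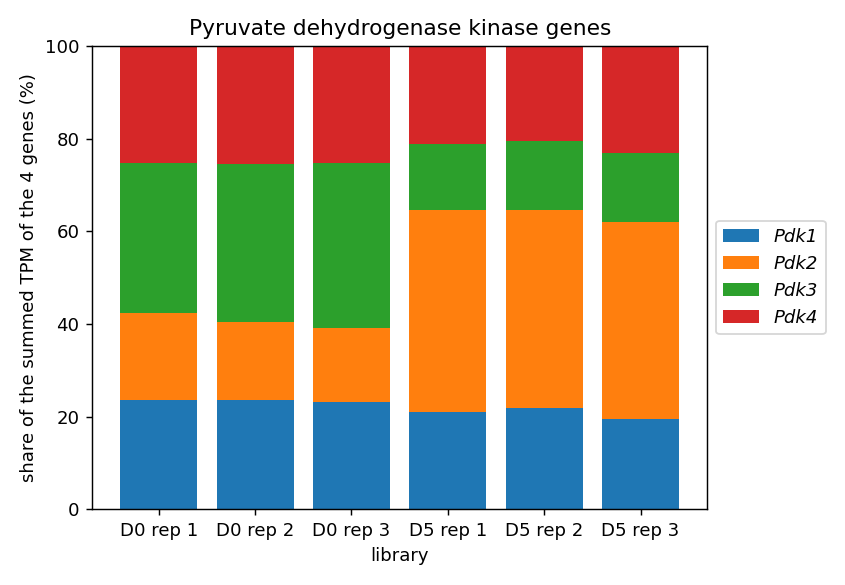
Share of each pyruvate dehydrogenase kinase gene in the summed TPM of the 4 genes (y axis, %), with 1 stacked bar per library. *Pdk2* takes from 15.9% to 18.8% of each D0 bar and from 42.6% to 43.4% of each D5 bar. By CPM, without division by exonic length, *Pdk1* was the highest of the 4 in both groups.

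Among the 10 genes of fatty acid uptake, activation and entry into mitochondria, 9 were tested. Of these 7 rose and 2 fell, beside 42.2% and 40.8% of all genes tested. With ERCC scaling *Cd36*, *Fabp3* and *Acsl1* passed as higher, *Lpl* and *Cpt1b* as lower, and *Cpt1a* turned negative. That scaling gave 11.1% of all genes as higher and 23.0% as lower. This group held the largest rise and the largest fall of all members. *Cd36*, the membrane transporter of long-chain fatty acids (ENSMUSG00000002944.15, chromosome 5 of GRCm38 from 17781690 to 17888801), was counted 0, 3 and 2 times in myoblasts and 1171, 1146 and 1111 times in myotubes. All myoblast libraries were at or under 3 counts, which was taken as the limit of detection for counting error, so the gene was at least 610-fold higher at D5 (edgeR adjusted p = 1.1e-31). The fitted log2 fold change of 9.98 was 10.58 without D0 replicate 2 and from 9.46 to 10.58 over the libraries left out. Its level of 39.7 ± 1.43 TPM at D5 (SD, n = 3) was near that of *Cpt2*, 40.2 ± 2.73 TPM.

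*Lpl*, the lipoprotein lipase that releases fatty acids from triglyceride outside the cell, moved the other way. It had 19.5, 19.8 and 21.1 CPM at D0 and 6.96, 6.28 and 6.95 CPM at D5, 2.99-fold lower with no overlap (log2 fold change -1.58, standard error 0.073, edgeR adjusted p = 1.3e-18). *Cd36* and *Lpl* are also known from adipocytes. The summed level of the 8 adipocyte markers lay between 18.4 and 20.1 CPM at D0 and between 13.9 and 16.2 CPM at D5, with *Cidec*, *Cfd* and *Lep* at 0 in all libraries. The markers of that list with most counts moved in opposite directions. *Pparg* had 695, 842 and 735 counts at D0 and 209, 204 and 173 at D5, and *Slc2a4*, the glucose transporter GLUT4, which muscle also expresses, had 0, 4 and 3 counts and then 193, 187 and 172.

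The cytosolic fatty acid binding proteins were far apart. *Fabp3*, the heart and muscle form (ENSMUSG00000028773.8, chromosome 4 from 130308595 to 130315463), had 4.45, 4.40 and 3.82 CPM at D0 and 43.5, 42.6 and 46.0 CPM at D5. It was 10.4-fold higher (log2 fold change 3.38, standard error 0.066, edgeR adjusted p = 2.6e-28). Of the 50-base stretches in its transcripts, 37.3% also occur in other genes, among them the pseudogene *Fabp3-ps1*, which had 2, 1 and 0 counts at D0 and 6, 5 and 5 at D5. *Fabp4*, the adipocyte form, had 6, 11 and 1 counts at D0 and 2, 1 and 1 at D5, too few for the filter. Without the filter its log2 fold change was -1.47, with an edgeR adjusted p of 0.123.

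*Acsl1*, which activates long-chain fatty acids to acyl-CoA, rose from 17.5, 16.8 and 16.1 CPM at D0 to 73.4, 77.2 and 67.6 CPM at D5. The rise was 4.33-fold (log2 fold change 2.12, standard error 0.052, edgeR adjusted p = 8.6e-26). In the carnitine shuttle, *Slc25a20*, the carnitine-acylcarnitine carrier, rose by 1.42 on the log2 scale, *Cpt2* of the inner membrane by 0.71 and *Cpt1a* of the outer membrane by 0.52. *Mlycd*, which degrades malonyl-CoA, the inhibitor of carnitine palmitoyltransferase 1, rose by 0.97.

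*Cpt1b*, the form of carnitine palmitoyltransferase 1 known from adult muscle, was counted at a very low level. Its counts were 17, 17 and 26 in myoblasts and 2, 8 and 7 in myotubes. The groups did not overlap, and the log2 fold change was -1.12 (standard error 0.40, edgeR adjusted p = 0.0116). The call was lost without D0 replicate 3 (log2 fold change -0.91, edgeR adjusted p = 0.0600) and without D5 replicate 1 (-0.72, edgeR adjusted p = 0.117), and D5 replicate 1 was at or under the limit of detection. In the annotation used here, 81.4% of the exonic length of *Cpt1b* lies under exons of *Gm44502*, a read-through gene on the same strand, which had 0 counts in all 6 libraries. *Chkb*, the other gene under it, had 202, 185 and 188 counts at D0 and 65, 70 and 107 at D5. By default featureCounts gives a read over several genes to none of them, and the setting behind these files is not given in the sources used here. The part of this overlap in the low counts was not tested.

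The promoters were searched for 3 motifs linked to muscle and oxidative genes, on both strands, in windows from 250 bases before to 50 after each start listed by RefSeq for GRCm38.p6. Windows were found for 45 members, 55 in all. The E-box CAGCTG, bound by myogenic basic helix-loop-helix factors, occurred in 14.5% of these windows and in 16.3% of all 32851 windows of the genome. Its 8 member genes were *Acsl1*, *Bcat2*, *Bckdhb*, *Cpt1a*, *Dld*, *Got2*, *Mlycd* and *Pdk1*, each with 1 window. The motif TNAAGGTCA of the estrogen-related receptors and the MEF2 motif were in no member window, with 1.28% and 3.19% of all windows holding them. None of the 3 motifs was found in the windows of the largest rises that the RefSeq table holds (*Cd36*, *Fabp3* and *Pdk2*).

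A pair of stretches is shown, chosen after the values were seen, as the upstream part of the promoter of the member with the largest rise and of a strongly raised member with an E-box. The *Cd36* stretch lies on chromosome 5 of GRCm38.p6, minus strand, chr5:17835897-17836146, and the *Acsl1* stretch on chromosome 8, plus strand, chr8:46490716-46490965, each the 250 bases just before a listed start. Capitals mark the E-box, which begins at base -58 from the start. A further *Acsl1* start listed upstream had no match.
Cd36: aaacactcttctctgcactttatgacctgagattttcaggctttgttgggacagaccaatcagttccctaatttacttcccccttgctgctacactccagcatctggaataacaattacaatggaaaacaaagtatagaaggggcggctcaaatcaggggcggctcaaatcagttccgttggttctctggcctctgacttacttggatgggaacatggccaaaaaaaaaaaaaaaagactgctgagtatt
Acsl1: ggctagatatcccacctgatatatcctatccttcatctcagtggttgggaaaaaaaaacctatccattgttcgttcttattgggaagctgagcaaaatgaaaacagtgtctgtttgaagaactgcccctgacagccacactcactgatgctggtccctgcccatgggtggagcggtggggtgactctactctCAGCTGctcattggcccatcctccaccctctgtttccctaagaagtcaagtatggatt

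All 10 genes of the beta-oxidation spiral rose, where 42.2% of all genes tested did. The 10 log2 fold changes ran from 0.18 to 2.17, with a median of 0.77. With ERCC scaling *Acaa2* alone passed as higher, beside 11.1% of all genes, and *Acadm*, *Acadl* and *Hadh* turned negative. *Acaa2*, the mitochondrial thiolase of the last step, stood apart with 28.6, 29.5 and 26.8 CPM at D0 and 122, 137 and 124 CPM at D5. It was 4.51-fold higher with no overlap (log2 fold change 2.17, standard error 0.046, edgeR adjusted p = 1.8e-27). The acyl-CoA dehydrogenases, which start each round, rose in the order of *Acadvl* (1.01 on the log2 scale), *Acads* (0.61), *Acadl* (0.39) and *Acadm* (0.18), the very-long-, short-, long- and medium-chain enzymes. For *Acadm*, the smallest rise called, the libraries had 70.2, 69.9 and 67.2 CPM at D0 and 78.5, 79.9 and 76.9 CPM at D5. Even there no D0 library reached a D5 library (standard error 0.037, edgeR adjusted p = 5.8e-05). Of the exonic length of *Acadvl*, 42.9% lies over exons of *Dvl2* on the opposite strand, whose log2 fold change was -0.33, and without a stated strand setting their reads cannot be told apart.

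*Hadha* and *Hadhb* encode the subunits of the mitochondrial trifunctional protein. They lie head to head on chromosome 5 of GRCm38. Between the start of *Hadha* on the minus strand at 30155162 and that of *Hadhb* on the plus strand at 30155248 lie 85 bases. The next nearest members, *Idh3a* and *Etfa*, lay 849846 bases apart on chromosome 9. *Hadha* rose from 126 ± 4.05 CPM to 249 ± 11.3 CPM and *Hadhb* from 49.0 ± 1.36 to 88.8 ± 2.10 CPM (SD, n = 3 for each mean). Their log2 fold changes were 0.99 and 0.86. *Echs1*, the short-chain enoyl-CoA hydratase, rose by 0.76, *Eci1*, an isomerase for unsaturated fatty acids, by 0.78, and *Hadh*, the short-chain hydroxyacyl-CoA dehydrogenase, by 0.34.

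The 3 genes that carry electrons from the acyl-CoA dehydrogenases to ubiquinone rose within a narrow range, beside 42.2% of all genes tested. None of the 3 passed with ERCC scaling, and *Etfdh* turned negative. *Etfa* and *Etfb*, the subunits of the electron transfer flavoprotein, had log2 fold changes of 0.58 and 0.78, and *Etfdh*, its ubiquinone oxidoreductase, 0.50. *Etfb* was counted at 5.50 ± 0.597 CPM at D0 and *Etfa* at 75.3 ± 2.11 CPM (SD, n = 3 each). In the annotation, 58.2% of the exonic length of *Etfb* is shared on the same strand with *Gm45233* or a microRNA gene, and *Gm45233* had at most 1 count in any library. As for *Cpt1b*, the part of this overlap in the level was not tested.

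Of the 6 genes of amino acid and ketone body use, 5 rose and 1 fell, beside 42.2% and 40.8% of all genes tested. With ERCC scaling none of the 6 passed, and *Got1* and *Got2* turned negative. *Bcat2*, the mitochondrial aminotransferase of branched-chain amino acids, had 22.8, 21.5 and 21.2 CPM in myoblasts and 46.4, 49.8 and 49.0 CPM in myotubes. All D5 libraries were above all D0 libraries (log2 fold change 1.15, standard error 0.048, edgeR adjusted p = 1.2e-19). *Bckdha* and *Bckdhb*, the E1 subunits of the branched-chain ketoacid dehydrogenase that acts next, had log2 fold changes of 1.26 (standard error 0.054) and 1.41 (standard error 0.30). *Bckdhb* rested on few counts, with 10, 12 and 17 at D0 and 23, 25 and 17 at D5, though its CPM did not overlap (edgeR adjusted p = 9.5e-05). Of the length of *Bckdha* 61.7% lies over *B3gnt8* on the opposite strand, which fell by 2.44 on the log2 scale. The aspartate aminotransferases *Got1*, cytosolic, and *Got2*, mitochondrial, rose by 0.24 and 0.32.

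*Oxct1*, which activates ketone bodies, was at the edge of the threshold. It had 187, 194 and 179 CPM at D0 and 174, 182 and 175 CPM at D5, and the groups overlapped. The log2 fold change of -0.078 (standard error 0.035) had an edgeR adjusted p of 0.0421. The call was lost without D0 replicate 2 (-0.057), without D5 replicate 1 (-0.062) and without D5 replicate 3 (-0.068).

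Per exonic length, the members with the highest levels changed between the groups. At D0 these were *Cs* at 245 ± 4.62 TPM, *Mdh2* at 226 ± 6.46 TPM and *Acadl* at 217 ± 6.31 TPM (SD, n = 3 each). *Mdh2* and *Acadl* lay closer together than the sum of their SDs. Such orders depend on the exonic length used, and by CPM *Acadl* was at 126 at D0, below *Ogdh* at 221. At D5 *Pdha1* led with 511 ± 27.4 TPM, after 159 ± 5.63 TPM at D0. *Mdh1* at 300.3 ± 14.2 TPM came next, followed by *Acaa2* at 261 ± 12.5 TPM and *Acadl* at 255 ± 14.8 TPM, which differed by less than 1 SD. At the lower end of the D0 levels stood *Bckdhb* at 0.624 ± 0.171 TPM, *Cpt1b* at 0.515 ± 0.137 TPM, *Fabp4* at 0.114 ± 0.092 TPM and *Cd36* at 0.039 ± 0.035 TPM. On the TPM scale 40 of the 50 tested members lay above D0 in every D5 library and 8 of the 50 below. Among all genes tested, 35.9% and 47.7% did.

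**Figure D4:**
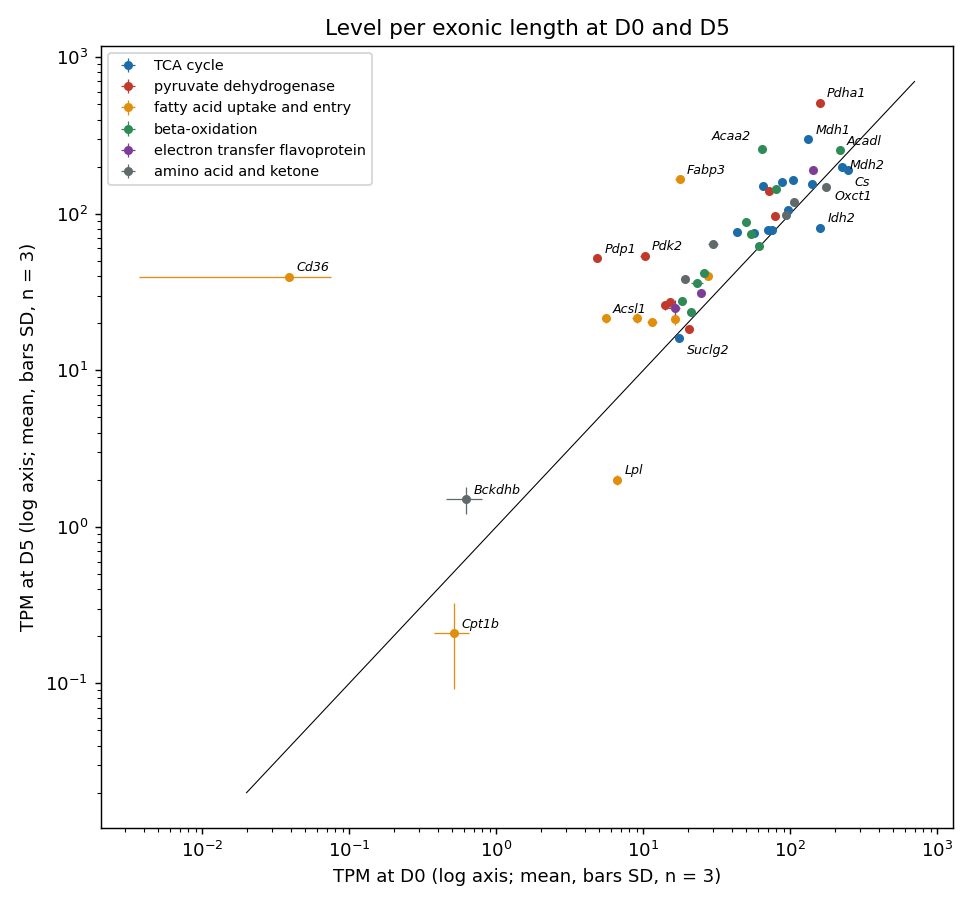
Mean TPM of each tested member at D0 (x axis) and D5 (y axis), both on log axes, with bars of 1 SD (n = 3), coloured by role; the line marks equal levels. *Pdha1* is the highest point at D5, and *Cd36* is the leftmost of the tested members at 0.039 TPM at D0. *Idh2*, *Lpl*, *Cpt1b*, *Cs*, *Mdh2*, *Oxct1*, *Suclg2* and *Pdk3* lie below the line.

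The ratio of 2 genes within a library does not depend on how libraries are scaled. Of 8 pairs of related members, 6 had more than 3 counts in every library and were compared per exonic length by a two-sided exact permutation test, in which 3 libraries against 3 cannot give less than 0.1. The ratio of *Sucla2* to *Suclg2* was 3.54, 3.82 and 3.74 at D0 and 9.48, 9.78 and 8.93 at D5, a change of 1.34 ± 0.050 (SE) on the log2 scale. The ratio of *Mdh2* to *Mdh1* went from 1.68, 1.69 and 1.78 to 0.648, 0.651 and 0.689, so that the cytosolic gene became the more abundant, a change of -1.37 ± 0.039. *Pdk2* to *Pdk3* went from 0.579, 0.488 and 0.446 to 3.04, 2.89 and 2.88, a change of 2.55 ± 0.11. These 3 ratios and that of *Acadl* to *Acadvl*, which changed by -0.62 ± 0.033, did not overlap between groups and reached the smallest p possible, 0.1 (0.15 after Benjamini-Hochberg adjustment over the 6 pairs in the exact permutation test). The ratios of *Got2* to *Got1* and of *Pdk4* to *Pdk1* overlapped, with changes of 0.087 ± 0.062 (exact permutation p = 0.2, adjusted 0.24) and -0.047 ± 0.098 (p = 0.7, adjusted 0.7).

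Ratios between subunits of 1 complex, and between enzymes of 1 step, also differed between the groups. These ratios were chosen after the values were seen and carry no test. Per exonic length, *Pdha1* was 2.22 ± 0.053 times the level of *Pdhb* at D0 and 3.64 ± 0.087 times at D5, and 2.03 ± 0.070 and 5.31 ± 0.289 times that of *Dlat* (SD, n = 3 each). *Idh3g* went from 1.17 ± 0.017 to 2.00 ± 0.078 times *Idh3a*, whereas *Idh3b* to *Idh3a* overlapped between groups, 1.27 ± 0.044 and 1.34 ± 0.053. The trifunctional protein kept nearer to its ratio, with *Hadha* at 1.94 ± 0.11 and 2.12 ± 0.072 times *Hadhb*. *Idh2* went from 2.12 ± 0.014 to 1.03 ± 0.066 times *Idh3a*, and *Pdp1* from 0.477 ± 0.044 to 0.969 ± 0.024 times *Pdk2*.

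Other genes of these pathways that are no members were read from the same fit. Of 60 listed, 57 were tested, 45 rose and 12 fell, with a median log2 fold change of 0.69, where 42.2% of all genes rose and 40.8% fell. With ERCC scaling 10 of them passed as higher and 8 as lower, where 11.1% and 23.0% of all genes did. The largest rises among those averaging 100 counts or more in either group were *Acsl6*, a further acyl-CoA synthetase (137-fold), *Acacb*, which makes the malonyl-CoA that *Mlycd* removes (40.6-fold), and *Pcx*, pyruvate carboxylase, which feeds oxaloacetate to the cycle (23.5-fold). *Acsl6* had 10, 19 and 20 counts at D0 and 1494, 1361 and 1297 at D5, and *Acacb* 9, 5 and 5 and then 162, 141 and 185. *Pcx* had 5.15, 5.54 and 5.88 CPM at D0 and 128, 128 and 134 CPM at D5. The edgeR adjusted p-values of the 3 genes were 1.7e-31, 1.0e-19 and 2.8e-34.

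Among the largest falls were relatives of members that rose. *Fabp5*, a binding protein of the same family as *Fabp3*, went from 51.2, 53.0 and 46.6 CPM to 2.78, 3.49 and 2.81 CPM, 16.6-fold lower. *Bcat1*, the cytosolic partner of *Bcat2*, fell from 88.9, 92.6 and 83.9 CPM to 5.97, 6.89 and 6.67 CPM, 13.6-fold. *Slc25a10*, a mitochondrial dicarboxylate carrier, was 4.81-fold lower. None of these groups overlapped (edgeR adjusted p = 3.3e-28, 1.7e-30 and 2.6e-27).

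How many members count as higher depended on what the libraries were scaled to. With scaling to the ERCC spike-ins, the median of all genes tested moved to -0.58 and that of the members to 0.21. The distance between them was 0.79, and 0.77 with TMM. A change of scaling moves all genes of a library together, so this distance could hardly change and cannot show which scaling holds. Of all calls, 67.4% were lower at D5 with ERCC scaling, compared with 49.2% with TMM. In that fit 7 members were higher past the threshold (*Pdha1*, *Pdk2*, *Pdp1*, *Cd36*, *Fabp3*, *Acsl1* and *Acaa2*) and 3 lower (*Idh2*, *Lpl* and *Cpt1b*), and 14 members changed sign. The share of higher calls, 14%, stood beside 11.1% of all genes tested in that fit, and that of lower calls, 6%, beside 23.0%. Every D5 library lay above every D0 library for 7 of the 50 tested members and below for 4 of the 50. Among all genes tested, 12.3% and 40.4% did so. The D5 libraries disagreed under this scaling. The members' median log2 ratio to the D0 mean came to 0.030 in D5 replicate 1, 0.88 in replicate 2 and -0.79 in replicate 3, compared with 0.70, 0.81 and 0.70 under TMM, and D5 replicate 3 held the highest share of spike-in counts, 2.09%.

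**Figure D5:**
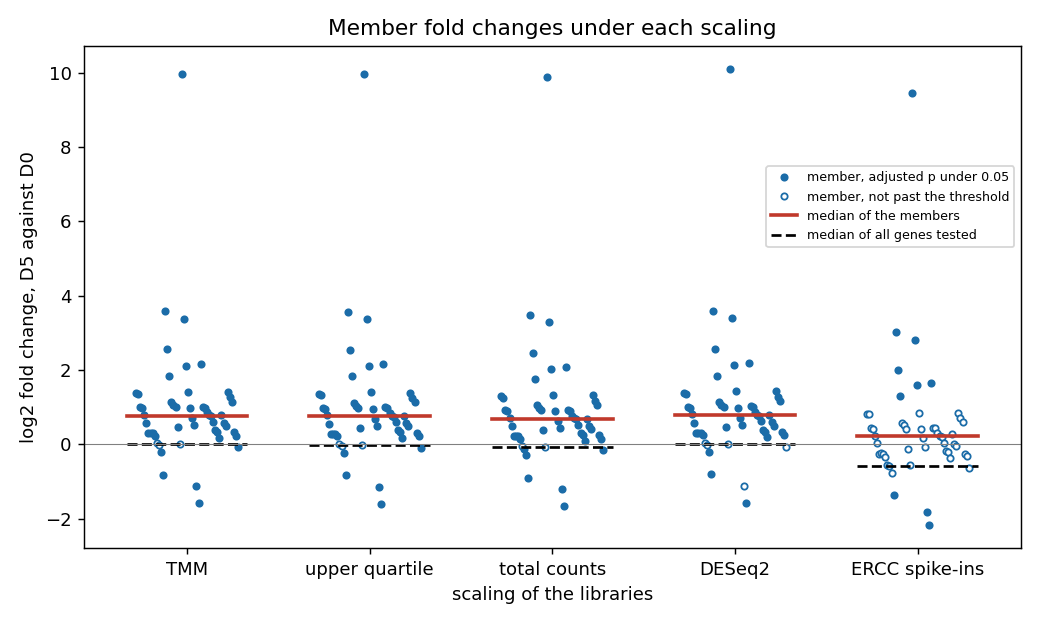
Log2 fold change of each of the 50 tested members (points, filled where past the threshold) under 5 scalings of the libraries, with the median of the members (solid line) and of all genes tested (dashed line). The 4 scalings based on the gene counts place the members' median between 0.68 and 0.78, while the ERCC spike-ins shift it to 0.21 and leave 10 points filled.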

How the data were processed

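Total RNA from 3 C2C12 samples at D0 and 3 at D5, with an RNA integrity number above 8.0, was sequenced by the authors, who deposited raw counts per gene of GRCm38 (mm10) from featureCounts, without normalization. The labels name Tophat2 as aligner and the paper HISAT2, which is not settled, and the annotation release, the strand setting and the handling of reads over several genes are not given in the sources used here. The 92 ERCC rows and a row without a name, which held 100% of its column's total, were left out of library sizes.

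Counts on genes were scaled with TMM in edgeR 4.0.16 (R 4.3.3), filtered with filterByExpr and tested with edgeR's quasi-likelihood test, D5 against D0, with Benjamini-Hochberg adjustment over 16290 genes. The standard error was obtained as |log2 fold change| over the root of the F statistic. CPM used TMM library sizes and TPM the merged exonic length of GENCODE M21, which was also used for positions. The transcripts expressed from each gene were not measured, so orders between genes in TPM depend on this length. Means are given with SD. A gene with 3 counts or fewer was taken as not detected, a limit that covers counting error only. The labels do not say whether the 3 samples of a group came from separate cultures, so p-values measure the spread between these samples, which may be technical. Each pair of replicates differed by more than sampling noise (2.16 to 3.45 chi-square units per degree of freedom).

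All members are named with their values. Of the other pathway genes, the 3 largest rises and falls that passed the threshold are named, given 100 counts or more on average in either group. The members and lists were chosen with earlier results of these data known. On simulated data, 89.8% of 197 genes changed 2-fold were recovered among 15933 tested in D5 against D0, and 6.84% of calls fell on unchanged genes. Few genes were changed there, in both directions. It therefore cannot show error rates where most genes differ, as here, or where calls depend on the scaling. Alternatives were DESeq2 1.42.0, upper-quartile, total-count and ERCC scaling, no filter, a minimum of 10 counts per library, omission of single libraries and a replicate block.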

Additional observations from a re-analysis of the deposited data

How the results depend on the processing

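Leaving out each library in turn kept 42 members higher, gave from 3 to 5 lower (3 without D5 replicate 1) and a median log2 fold change of the members from 0.70 to 0.79. The calls of *Cs*, *Idh2* and *Lpl* as lower held in all 6 of these fits, and that of *Cs* was lost with ERCC scaling (-0.76). DESeq2 called 3 members lower, losing *Cpt1b* and *Oxct1*, and the median was 0.68 with total counts. With ERCC scaling, 5560 genes passed the threshold instead of 13510. In that fit 7 members were higher and 3 lower, with a median of 0.21. Of the other pathway genes, 10 were higher and 8 lower. Under this scaling 7 of the 50 tested members lay above D0 in every D5 library, beside 12.3% of all genes. The log2 fold changes that turned to lower under ERCC scaling were *Idh3a* -0.34, *Idh3b* -0.25, *Ogdh* -0.27, *Dlst* -0.24, *Suclg2* -0.54, *Dlat* -0.12, *Pdk3* -0.57, *Cpt1a* -0.065, *Acadm* -0.37, *Acadl* -0.18, *Hadh* -0.21, *Etfdh* -0.056, *Got1* -0.32 and *Got2* -0.26. *Suclg2* and *Pdk3*, not called, also changed sign with total counts (-0.056 and -0.081) and without the filter (-0.025 and -0.050), and *Pdk3* with upper-quartile scaling (-0.012) and without D0 replicate 1 (-0.045, the lowest of a range up to 0.019 over the libraries left out). *Mdh2* passed the threshold as lower with total counts (-0.12) and without the filter (-0.084). With at least 10 counts in every library *Cpt1b* was not tested. The change in the *Pdk4* to *Pdk1* ratio was 0.023 without D5 replicate 2, and ranged from -0.14 to 0.023 over the libraries left out. The cause was not tested.

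Same-numbered libraries correlated by 0.033, 0.064 and 0.028 in their deviations from the group means over genes. Each library correlated best with its own number, but these correlations are small and cannot show whether the numbers mark pairs. With the replicate number as a block, 42 members were higher and 5 lower and no member's call changed. The counts of members above or below in every library under TPM, total counts and ERCC scaling were alternatives chosen after seeing the data.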
